A study of Mus musculus with 8 samples.

Results

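Collagens and matrix genes were followed across cells of mouse organ allografts and of the recipients' blood. The members are 10 genes of the extracellular matrix, chosen by name out of 24405 genes listed in any of the 8 libraries: the fibrillar collagen genes Col1a1, Col1a2 and Col3a1, the basement membrane collagen gene Col4a1, the proteoglycan gene Dcn, the calcification inhibitor gene Mgp, and Sparc, Fn1, Spp1 and Ecm1, which encode secreted glycoproteins. All 10 had a row in each of the 5 tissue libraries. In blood, 4 members had a row in the heart and in the liver PBMC library, and 8 had one in kidney PBMC. Col1a2, Col3a1, Col4a1, Dcn, Mgp and Sparc had no row in heart and liver PBMC, and Dcn and Sparc had none in kidney PBMC, so no value is given for them there.

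Fibrillar collagens are made by fibroblasts and related stromal cells and give tissue its tensile strength, while collagen IV forms the sheet-like network of basement membranes under endothelium and epithelium. Decorin binds collagen fibrils, SPARC binds collagen during its secretion and assembly, matrix Gla protein keeps soft tissue from calcifying, and fibronectin links cells to the fibrils. Osteopontin, the product of Spp1, and fibronectin are made by macrophages as well as by stromal or epithelial cells. Fibroblasts that carry these genes lay down the matrix of repair and scar.

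Recipients were untreated C57BL/6 mice that carried a BALB/c organ, a liver in place of their own or a heart or kidney as an added organ, and graft and blood were sampled on day 7. The labels give the strain BALB/c, the age of 8 weeks and male sex for each of the 8 libraries, which are peripheral blood mononuclear cells (PBMC) and tissue-infiltrating lymphocytes (TIL) of heart, liver and kidney recipients, and parenchymal cells (PC) of liver and kidney. Grafts were dissociated with type II collagenase and TIL were separated by density gradient. Each group is 1 library, with a pair of recipients per organ and no mark of the animal a cell came from, so no difference between groups could be tested, and each interval below is a 95% interval that covers counting error only.

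Each library held 10000 barcodes and 3418722 to 19171264 unique molecular identifiers (UMIs, 1 for each captured RNA molecule), and 795 to 10000 barcodes per library passed the floor of 500 UMIs. Organ genes of 2 libraries went against their labels. T cells of the library labelled heart TIL carried all 6 hepatocyte genes examined, at 348 CPM (a gene's UMIs per 1000000 UMIs of the summed cells) in sum, and T cells of the library labelled liver TIL carried none of them, but all 6 cardiomyocyte genes at 111 CPM. Both are therefore named by their label only, and values are set beside those of liver PC, whose T cells held 194 CPM of the hepatocyte list. The PC libraries were not free of lymphocytes, as 6702 of 10000 cells of liver PC and 303 of 795 of kidney PC met the T cell gate described below. Pairs of libraries shared between 123 and 617 barcodes.

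Cells were assigned by marker UMIs that are not members. Stromal cells had at least 1 UMI of Pdgfrb, Pdgfra, Lum or Col6a1 and no Cd3 UMI, endothelial cells at least 2 UMIs of Cdh5, Egfl7, Kdr, Tie1, Emcn or Clec14a and no Cd3 UMI, macrophages at least 1 UMI of Csf1r, and monocytes at least 5 UMIs of Chil3. T cells, with at least 2 UMIs of Cd3d, Cd3e and Cd3g, served as the background, as T cells are not known to make fibrillar collagen. Stromal cells numbered 150 in the library labelled liver TIL, 16 in that labelled heart TIL and 12 in liver PC, with 1 or 2 in heart PBMC, liver PBMC and kidney TIL and none in the others. Endothelial cells numbered 19, 14 and 5 in the first 3 of these libraries and none elsewhere. Fewer cells of a type and less RNA per cell cannot be told apart from the summed levels of a library.

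Upstream sequences are shown for 4 members that stand for the patterns described below: Col3a1 and Col4a1, collagens of fibrils and of basement membrane, and Spp1 and Ecm1, whose levels were followed in myeloid cells. RefSeq promoter entries of build GRCm38.p6 matched 6 of the 10 members, and each sequence holds the 250 bases before the annotated start, 5′ to 3′ on the gene's strand. Capitals mark CCAAT or its reverse complement ATTGG, and TATAAA or its reverse complement TTTATA. Of 32851 promoter entries read over the same 250 bases, 33.8% held the first pair and 12.4% the second.
Col3a1, chr1:45311288-45311537, + strand: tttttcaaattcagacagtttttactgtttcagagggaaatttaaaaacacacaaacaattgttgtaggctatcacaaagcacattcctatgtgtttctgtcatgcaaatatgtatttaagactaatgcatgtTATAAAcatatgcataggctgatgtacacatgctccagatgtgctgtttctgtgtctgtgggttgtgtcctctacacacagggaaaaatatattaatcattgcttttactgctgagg
Col4a1, chr8:11312827-11313076, − strand: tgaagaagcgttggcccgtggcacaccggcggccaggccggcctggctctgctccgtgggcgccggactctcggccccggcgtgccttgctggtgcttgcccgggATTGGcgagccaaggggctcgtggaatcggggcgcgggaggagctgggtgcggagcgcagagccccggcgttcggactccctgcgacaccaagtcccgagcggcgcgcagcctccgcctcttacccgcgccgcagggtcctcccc
Spp1, chr5:104434861-104435110, + strand: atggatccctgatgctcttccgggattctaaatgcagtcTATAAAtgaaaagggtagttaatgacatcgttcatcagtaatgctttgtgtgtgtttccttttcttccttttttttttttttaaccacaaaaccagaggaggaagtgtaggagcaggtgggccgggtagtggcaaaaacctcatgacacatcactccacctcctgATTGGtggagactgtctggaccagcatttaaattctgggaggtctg
Ecm1, chr3:95739570-95739819, − strand: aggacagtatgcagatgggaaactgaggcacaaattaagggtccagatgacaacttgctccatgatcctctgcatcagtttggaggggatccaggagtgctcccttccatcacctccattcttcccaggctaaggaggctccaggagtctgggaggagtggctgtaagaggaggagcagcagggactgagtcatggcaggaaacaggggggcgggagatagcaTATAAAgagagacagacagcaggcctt
The windows of Col3a1 and Col4a1 differed in composition, with 35.2% and 74.4% G and C. Col3a1 held TATAAA with its first base 117 bases before the start, Ecm1 held it at 27 bases, and Col4a1 held a reversed CCAAT at 145 bases. The Spp1 window held a reversed CCAAT at 46 bases and TATAAA at 211 bases. A second Spp1 entry, at chr5:104435942-104436191 and inside the gene, is not shown and held neither. These letters are a description of the windows and not binding sites.

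Fibrillar collagen levels were highest in the stromal gate, which held a minority of these UMIs. In stromal cells lay 25.1% of the Col1a1 UMIs of cells in the library labelled liver TIL, 25.9% in that labelled heart TIL and 44.8% in liver PC, while T cells, far more numerous, held 24.5%, 53.1% and 32.1%. Cells in no class held 40.1%, 10.5% and 17.7%, and the 2 stromal cells of kidney TIL held none. For Col3a1 the stromal shares were 24.02%, 25.2% and 48.0%, and for Col4a1 6.91%, 2.13% and 7.22%. Col1a1 (ENSMUSG00000001506, chr11:94936224-94953042), a chain of collagen I, stood at 2143 CPM in stromal cells of the library labelled liver TIL (301 UMIs, 1908 to 2399). It reached 3352 CPM (42 UMIs, 2416 to 4532) in the library labelled heart TIL, and 5533 CPM (165 UMIs, 4721 to 6444) in liver PC. A single stromal cell held 80 of the 301, 30 of the 42 and 118 of the 165 UMIs. T cells of the same libraries held 89.3, 16.6 and 8.71 CPM. The stromal level was thus 24.01-fold (20.4 to 28.3), 202-fold (136 to 295) and 635-fold (498 to 811) that of T cells. The 202-fold and 635-fold values rest mostly on 1 cell each, which the intervals do not cover. The fold was lowest where the T cell level was highest.

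Col1a2 (ENSMUSG00000029661, chr6:4504814-4541544), the partner chain, reached 1445, 3911 and 7545 CPM in the same stromal sums, taken in the same order, against 95.02, 18.0 and 14.2 CPM in T cells. Col3a1 (ENSMUSG00000026043, chr1:45311538-45349706), the collagen of reticular fibres and early repair, was the highest of the 3 in each stromal sum, with 3581 CPM (3275 to 3909), 6466 CPM (5135 to 8036) and 8282 CPM (7282 to 9382). Its T cells held 156, 30.9 and 11.7 CPM, which gave folds of 22.95 (20.3 to 26.0), 209 (158 to 275) and 710.02 (579 to 873). A single stromal cell held 121 of 503, 56 of 81 and 134 of 247 Col3a1 UMIs. For Col1a2 it was 58 of 203, 27 of 49 and 130 of 225. The 2 larger folds of each gene thus rest largely on 1 cell. The intervals of Col1a2 and Col3a1 overlapped in liver PC (6591 to 8598 for Col1a2) and at their edges in the library labelled heart TIL (2894 to 5171), so Col3a1 was above Col1a2 beyond counting error in the library labelled liver TIL. A UMI level is not a level per length, and these genes were compared as counted molecules.

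Dcn (ENSMUSG00000019929, chr10:97479609-97518143), the gene of decorin, stood at 2008, 4151 and 4627 CPM in the same 3 stromal sums, and at 114, 30.7 and 15.1 CPM in T cells. Sparc (ENSMUSG00000018593, chr11:55394500-55423183) stood at 3005, 3113 and 11703 CPM against 182, 55.9 and 26.9 CPM. Both genes were separated from T cells in each of these libraries, by 17.6-fold, 135-fold and 307-fold for Dcn and by 16.6-fold, 55.7-fold and 435.5-fold for Sparc. Mgp (ENSMUSG00000030218, chr6:136872435-136875823) was uneven. It reached 2499 CPM (2245 to 2775) in stromal cells labelled liver TIL and 2314 CPM (1800 to 2928) in those of liver PC, but 399 CPM (130 to 931, 5 UMIs) in those labelled heart TIL.

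Fn1 (ENSMUSG00000026193, chr1:71585520-71653200), the fibronectin gene, was at 356 CPM (264 to 469), 1277 CPM (730.0 to 2074) and 2045 CPM (1565 to 2627) in the 3 stromal sums, which is 5.61-fold, 48.9-fold and 50.8-fold the T cell level. Spp1 (ENSMUSG00000029304, chr5:104435118-104441050) did not follow the collagens in each library. It stood at 1531 CPM (1333 to 1750) and 1916 CPM (1227 to 2850) in stromal cells labelled liver TIL and heart TIL, and at 101 CPM (20.7 to 294, 3 UMIs) in those of liver PC, whose T cells held 95.5 CPM. Few cells carried these Spp1 UMIs. In the library labelled liver TIL, 9 of 150 stromal cells held 89.3% of them. The 24 UMIs labelled heart TIL lay in 2 of 16 cells, and the 3 of liver PC in 1 of 12. Ecm1 (ENSMUSG00000028108, chr3:95734147-95739569), the gene of extracellular matrix protein 1, had the smallest stromal excess in the library labelled liver TIL, at 363 CPM against 159.99 CPM, which is 2.27-fold (1.67 to 3.03).

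**Figure D1:**
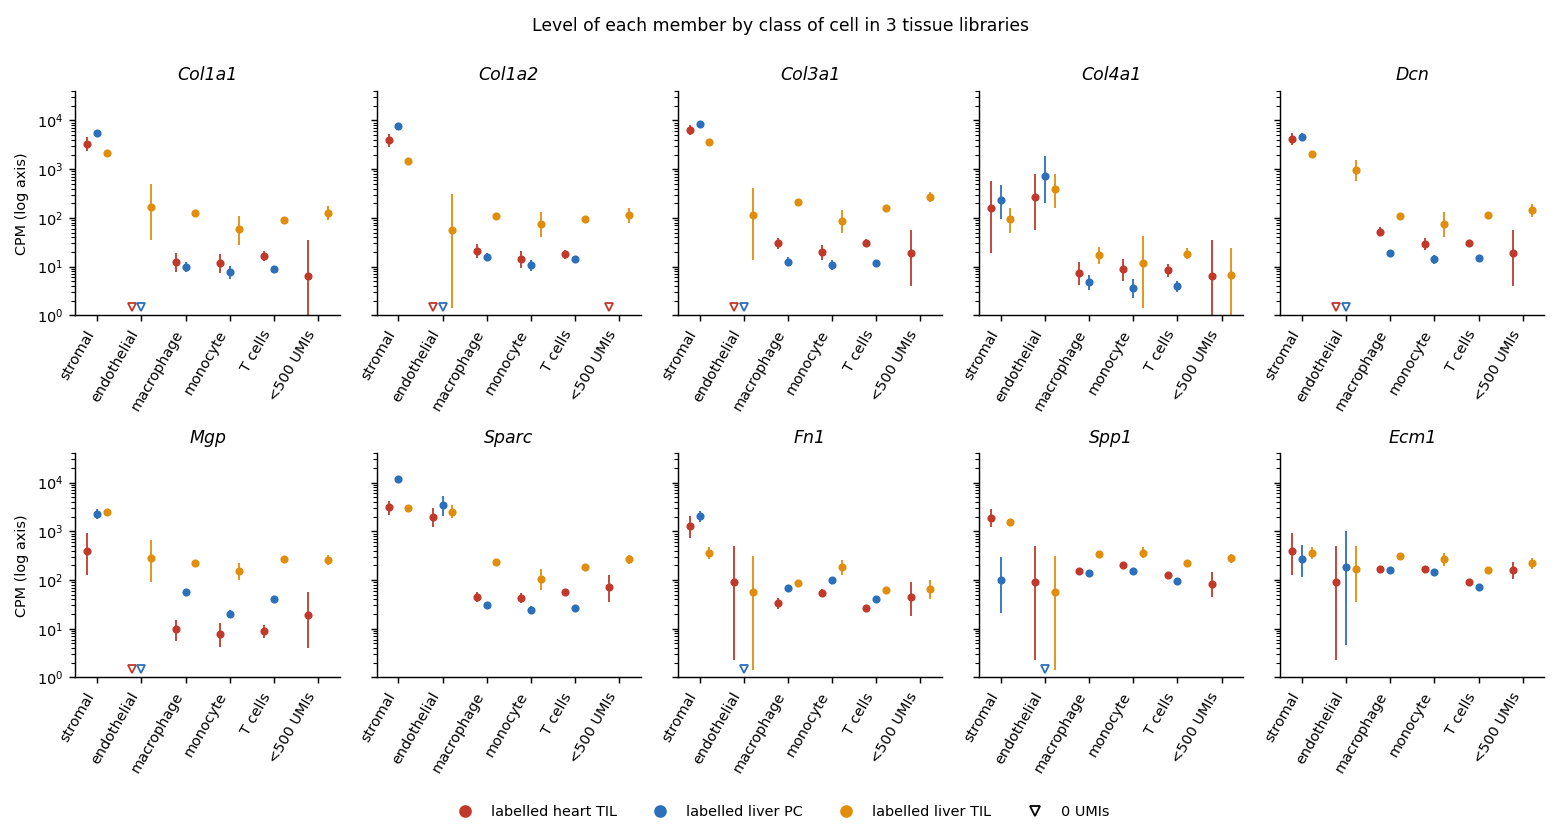
Level of each member in CPM on a log axis in 5 classes of cells and in barcodes under 500 UMIs, for 3 tissue libraries as labelled. Points are summed UMIs of a class, bars are exact Poisson 95% intervals and open triangles mark 0 UMIs. In the stromal column Col3a1 sits between 3581 and 8282 CPM, while its T cell points sit between 11.7 and 156 CPM.

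A member was called higher where its CPM plus 1 was at least 2-fold that of T cells and the class held at least 10 of its UMIs. With at least 20 cells required, only the stromal cells of the library labelled liver TIL could be read, and there 10 of 10 members were called, against 2.45% of 10325 genes examined. Of the 2148 genes with at least 10 UMIs in these cells, 11.8% were called. The median log2 ratio was 3.55 over the 10 members and -0.18 over all genes examined. Lowering the requirement to 10 cells, a choice made after the data were seen, added 7 of 10 members in the library labelled heart TIL, against 0.288% of genes, and 7 of 10 in liver PC, against 1.05%. Of genes with at least 10 UMIs in those cells, 15.1% and 27.5% were called. Col4a1, Mgp and Ecm1 held under 10 UMIs in the former, and Col4a1, Spp1 and Ecm1 in the latter. Without the libraries labelled heart TIL and liver TIL, the liver PC values, from 12 cells, are those that remain. The authors had already used Dcn and Mgp to mark stromal cells of the liver allografts. For stromal cells of the heart allografts they used Col3a1, Col1a2 and Mgp. These counts are therefore partly fixed in advance.

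Most of the 150 cells labelled liver TIL passed the stromal gate on a single UMI. The 29 cells with 2 or more gate UMIs held 7085 CPM of Col1a1 against 615 CPM in the 121 cells with 1, an 11.5-fold difference (8.73 to 15.4), and differed 9.18-fold in Col3a1, 9.98-fold in Dcn, 8.35-fold in Mgp and 7.18-fold in Sparc. For Spp1 the difference was 3.58-fold (2.72 to 4.73) and for Ecm1 1.11-fold (0.541 to 2.12). The 8 genes used to check the gate, Bgn, Pcolce, Col6a2, Col6a3, Serping1, Dpt, Fstl1 and Cygb, summed to 7055 CPM in the 29 cells and 904 CPM in the 121. The 8 macrophage genes of the check (C1qa, Cd68 and others) ran the other way, at 2291 and 9946 CPM, and 16 of the 150 cells carried Ptprc and 30 carried Csf1r. Without cells that carried Ptprc, Csf1r or Chil3, 9 members were still called, and Ecm1, with a log2 ratio of 0.65, was not.

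Thinning each cell to 500 UMIs gave shares of cells at equal depth. In the library labelled liver TIL, Sparc was seen in 34.0% of stromal cells (26.5 to 42.2), Mgp in 32.7%, Col3a1 in 28.7% and Dcn in 26.7%, against 7.22%, 9.50%, 6.41% and 5.24% of T cells. Median depth before thinning was 761.5 UMIs in stromal cells and 808 in T cells. Among the 29 cells with 2 or more gate UMIs these shares were 72.4%, 82.8%, 69.0% and 79.3%. Ecm1 was seen in 14.0% of stromal cells (8.88 to 20.6) and 12.6% of macrophages (11.0 to 14.3), which overlap. Members came together in the same stromal cells: of the 43 with a Col3a1 UMI, 27 also had Dcn, 30 had Mgp and 30 had Sparc, while of the 107 without, 13, 19 and 21 had them.

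**Figure D2:**
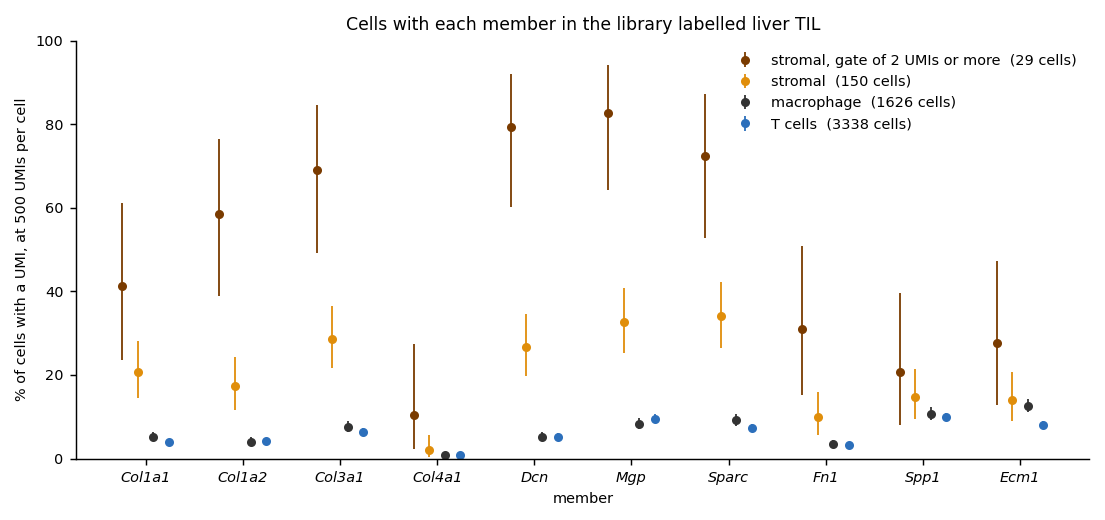
Percent of cells with at least 1 UMI of each member in the library labelled liver TIL, each cell thinned to 500 UMIs, with exact binomial 95% intervals. The 29 cells with 2 or more gate UMIs lie highest for Mgp at 82.8% and Dcn at 79.3%, and T cells lie between 3.15% for Fn1 and 9.92% for Spp1 apart from Col4a1.

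Endothelial cells held less fibrillar collagen RNA than stromal cells, while their Col4a1 level rested on 3 to 7 UMIs per library. Col4a1 (ENSMUSG00000031502, chr8:11198423-11312826), a chain of collagen IV, stood at 395 CPM (159 to 814, 7 UMIs) in the 19 cells labelled liver TIL, 273 CPM (3 UMIs) in the 14 labelled heart TIL and 732 CPM (4 UMIs) in the 5 of liver PC, against 18.5, 8.51 and 3.91 CPM in T cells. The stromal sums held 92.6 CPM (49.3 to 158), 160 CPM (19.3 to 577) and 235 CPM (94.4 to 484) of it, and the intervals of the 2 classes overlapped in the library labelled heart TIL and in liver PC. Sparc reached 2539, 2005 and 3475 CPM in endothelial cells, 14.0-fold, 35.9-fold and 129-fold the T cell level. Col1a1, Col1a2 and Col3a1 held 0 UMIs in the endothelial cells labelled heart TIL and of liver PC, where a count of 0 allows up to 273 and 549 CPM, limits under the stromal levels. The 19 endothelial cells labelled liver TIL held 3, 1 and 2 UMIs of these genes, at 169, 56.4 and 113 CPM, and Col1a1 was seen in 15.8% of them at 500 UMIs. No library reached 20 endothelial cells. At 10 cells, 1 of 10 members (Sparc) was called in the library labelled heart TIL, against 0.397% of genes, and 2 of 10 (Dcn and Sparc) in that labelled liver TIL, against 0.539%. Dcn held 17 UMIs there, at 959 CPM, and the 8 stromal check genes held 8 UMIs, at 451 CPM, with 2 of them detected. The part of stromal RNA in this value was not tested.

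A small number of cells carried much of the collagen. In liver PC the 10 richest of 10000 cells held 64.3% of Col3a1 UMIs and 55.2% of Mgp UMIs, and 1 cell held 226 of the 698 Mgp UMIs. Spp1, Fn1 and Ecm1 were spread more widely there, with 17.3%, 13.3% and 7.90% in their 10 richest cells. The 10 richest of the 9337 cells labelled liver TIL held 21.5% of Col3a1 and 3.22% of Ecm1. Cells with 10 or more UMIs of Col1a1, Col1a2 and Col3a1 together, a class defined after the data were seen, were 55 cells of the library labelled liver TIL, 18 of liver PC, 11 of that labelled heart TIL, 4 of kidney TIL and 1 of kidney PC. The 3 blood libraries held 0. They held 42.8%, 69.2%, 45.8%, 78.0% and 69.0% of these collagen UMIs in their libraries.

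These collagen-rich cells were not all in the stromal gate. It held 21 of the 55, 8 of the 18 and 3 of the 11, and 30, 8 and 4 of them had no Cd3 UMI, so many also carried T cell RNA. None of the 4 cells of kidney TIL or the 1 of kidney PC was in the gate or free of Cd3. Sparc stood at 27496 CPM (76 UMIs) in the 4 kidney TIL cells and 44.7 CPM in the other cells of that library. Ecm1 stood at 334 CPM in the 55 cells labelled liver TIL against 225 CPM in the rest, at 544 against 126 CPM in the library labelled heart TIL and at 367 against 95.7 CPM in liver PC. Left out of the stromal sums, they took 3 of the 10 calls in the library labelled liver TIL with them (Col1a2, Col4a1 and Fn1), and no Col4a1 UMI was left in the stromal cells there. Spp1 in the library labelled heart TIL came to a log2 ratio of -0.30.

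**Figure D3:**
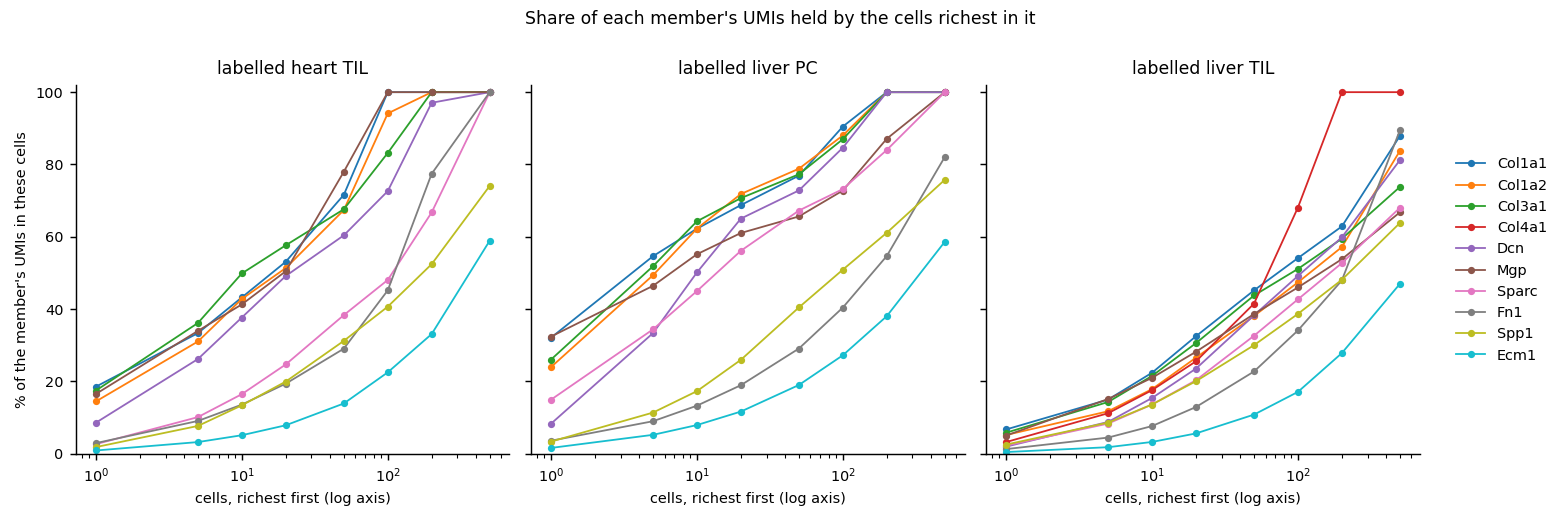
Percent of a member's UMIs held by the cells richest in it, from 1 to 500 cells on a log axis, in 3 tissue libraries as labelled. Members with under 100 UMIs in a library are not drawn. In liver PC the 10 richest cells hold 64.3% of Col3a1 but 7.90% of Ecm1.

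In macrophages with Csf1r, Ecm1 lay above the T cell level in 3 tissue libraries. The size of this excess depended on the gate, as did the direction for Spp1 in liver PC and the directions for the fibrillar collagens. Macrophages with Csf1r numbered 1626 in the library labelled liver TIL, 1721 in that labelled heart TIL, 3165 in liver PC, 805 and 903 in heart and liver PBMC, and 49 to 109 in the kidney libraries. Col3a1 in macrophages was 207, 30.1 and 12.7 CPM in the first 3, which is 1.33-fold (1.16 to 1.52), 0.972-fold (0.704 to 1.33) and 1.09-fold (0.829 to 1.41) its T cell level. Col1a1 lay at 1.42-fold, 0.743-fold and 1.12-fold, and Sparc at 1.32-fold, 0.807-fold and 1.15-fold. Dcn was 1.69-fold (1.30 to 2.20) its T cell level in the library labelled heart TIL, and 0.970-fold (0.810 to 1.16) in that labelled liver TIL. These ratios depended on the gate. With 2 Csf1r UMIs and no Cd3 UMI, 389 cells of liver PC held Col3a1 at 0.0899-fold (0.00226 to 0.508, 1 UMI) the T cell level and Sparc at 0.507-fold (0.267 to 0.878), whereas 339 Csf1r cells with no Chil3 UMI held Col3a1 at 2.32-fold (1.34 to 3.79, 18 UMIs) and Sparc at 2.41-fold (1.71 to 3.31). In the library labelled heart TIL, Dcn was 0.301-fold (0.00757 to 1.70, 1 UMI) in 95 cells of the former gate and 3.66-fold (2.34 to 5.53, 27 UMIs) in 254 of the latter. In that labelled liver TIL, Col3a1 was 0.804-fold (0.480 to 1.27) in 131 cells and 1.298-fold (1.10 to 1.53) in 995. Kidney macrophages were few. Col1a1, Col1a2 and Col3a1 stood at 112, 167 and 130 CPM in the 84 of kidney PC, from 6, 9 and 7 UMIs, against 30.9, 56.7 and 41.3 CPM in T cells, and at 24.9, 0 and 0 CPM in the 109 of kidney TIL, from 2, 0 and 0 UMIs, against 30.3, 62.04 and 27.6 CPM. A count of 0 allows up to 37.3 CPM there. In kidney PC 39.3% of the macrophages also met the T cell gate. The 9 Col1a2 UMIs lay in 1 macrophage, as did the 7 Col3a1 UMIs. All of the 6, 9 and 7 UMIs lay in cells that met both gates, so the kidney PC contrast counts the same molecules on both sides. The gates overlap, as 27.7%, 43.3% and 53.9% of the macrophages of the first 3 libraries also met the T cell gate, and the intervals of these ratios treat shared cells as separate counts. Barcodes under 500 UMIs in the library labelled liver TIL held 269.6 CPM of Col3a1 (214 to 335), above both classes.

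Ecm1 was at 313 CPM (287 to 341) in macrophages of the library labelled liver TIL, at 169 CPM (150.5 to 188) in that labelled heart TIL, and 160.2 CPM (151 to 169.8) in those of liver PC. T cells held 159.99, 91.1 and 71.5 CPM, and the folds were 1.96 (1.73 to 2.21), 1.85 (1.60 to 2.14) and 2.24 (2.06 to 2.45). The macrophage level lay above the T cell level in each of the 3 libraries by more than counting error, and only the last passed 2-fold. With 2 Csf1r UMIs and no Cd3 UMI the folds were 2.35, 3.55 (2.44 to 5.01) and 3.46 (2.99 to 3.995). With no Chil3 UMI the fold was 1.28 (0.843 to 1.88, 28 UMIs) in the library labelled heart TIL, within counting error, and 1.87 (1.49 to 2.33) in liver PC. In heart and liver PBMC macrophages Ecm1 was at 35.7 and 25.3 CPM, with intervals that overlap those of T cells. Spp1 stood at 338, 151 and 139 CPM in tissue macrophages which is 1.48-fold, 1.19-fold and 1.46-fold the T cell level. Without Csf1r cells that carried Chil3, its log2 ratio was 0.55, -0.12 and -0.59. With 2 Csf1r UMIs and no Cd3 UMI it was 0.64, 0.31 and 0.32. The sign thus turned in 2 of the 3 libraries. The -0.12 of the library labelled heart TIL is small and from 254 cells, without an interval, so no turn of direction is read there.

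Few members were called in macrophages. In tissue, 0 of 10 members were called in the library labelled liver TIL and 0 of 10 in that labelled heart TIL, where 2.34% and 1.23% of genes were, 1 of 10 (Ecm1) in liver PC, where 3.28% were, 1 of 5 examined (Sparc) in kidney PC, where 1% were, and 0 of 8 in kidney TIL, where 2.58% were. In blood, 1 of 3 (Fn1) was called in heart PBMC, against 4.09%, 1 of 3 (Fn1) in liver PBMC, against 11.8%, and none was examined in kidney PBMC, where 3.77% of genes were called. Sparc in kidney PC macrophages rested on 1 collagen-rich cell with 9 of its 13 UMIs. The Ecm1 call in liver PC was lost, at a log2 ratio of 0.90, when Csf1r cells with a Chil3 UMI were left out. The same step took the Fn1 log2 ratio of liver PC macrophages from 0.75 to -1.004, while with 2 Csf1r UMIs and no Cd3 UMI it was 0.66. Counts depended on the T cell gate. With T cells that also carried Csf1r left out of the background, 9 member and library pairs were called in place of 4. The share of all genes called against that background was not taken.

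Fn1 was the member most tied to monocytes. In monocytes with at least 5 Chil3 UMIs it stood at 85.1 CPM (73.6 to 97.8) in heart PBMC, 248 CPM (225.5 to 273) in liver PBMC, 54.9 CPM (44.6 to 67.0) in the library labelled heart TIL, 101 CPM (93.3 to 109.5) in liver PC and 186 CPM (127 to 262) in that labelled liver TIL. T cells held 21.5, 85.1, 26.1, 40.2 and 63.5 CPM in this order. The folds were 3.95 (2.34 to 7.19), 2.92 (1.94 to 4.60), 2.10 (1.61 to 2.75), 2.51 (2.24 to 2.83) and 2.93 (1.95 to 4.26), so Fn1 was called in each of the 5 libraries. Kidney PBMC, with 24 monocytes, held 0 Fn1 UMIs in them. The Chil3 gate also took in neutrophil RNA: the 7 neutrophil genes of the check (S100a8, Ngp and others) summed to 182116 CPM in these cells of heart PBMC, against 130337 CPM in T cells, and to 75383 CPM in liver PBMC. Without cells that carried Ngp, Camp, Ltf or Retnlg, the Fn1 log2 ratio over T cells was 2.30 in liver PBMC, 1.70 in liver PC, 1.13 in the library labelled heart TIL and 1.57 in that labelled liver TIL, and no value was left for heart PBMC, where under 20 such cells remained.

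Of the members examined in monocytes, 2 of 3 (Fn1 and Spp1) were called in heart PBMC against 4.98% of genes, 1 of 3 (Fn1) in liver PBMC against 12.6%, 1 of 10 (Fn1) in the library labelled heart TIL against 1.53%, 2 of 10 (Fn1 and Ecm1) in liver PC against 2.14%, 1 of 10 (Fn1) in that labelled liver TIL against 3.05%, and none was examined in kidney PBMC, where 2.97% were called. The gate was not free of T cell RNA, as 56.9% of liver PC monocytes also met the T cell gate, against 1.47% in liver PBMC. The monocyte and macrophage gates shared cells, 307 in heart PBMC and 358 in liver PBMC among them. With shared cells left out, a choice made after the data were seen, Fn1 was higher in monocytes than in macrophages by 6.04-fold (2.53 to 18.9) in heart PBMC, 1.90-fold (1.41 to 2.61) in liver PBMC, 2.10-fold (1.38 to 3.22) in the library labelled heart TIL, 2.56-fold (2.10 to 3.13) in liver PC and 2.32-fold (1.39 to 3.69) in that labelled liver TIL. In heart PBMC, 0 of the 63 Fn1 UMIs of Csf1r cells lay in the 55 of these cells with no Chil3 UMI. Those 55 held 41217 of the 812894 UMIs of the Csf1r cells, too few to show whether cells without Chil3 carried Fn1. The 48 cells with 2 Csf1r UMIs and no Cd3 UMI held 25 Fn1 UMIs. In liver PBMC the log2 ratio of Csf1r cells over T cells was 1.196 without Chil3 cells and 1.39 with them.

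Between liver PBMC and liver PC, Fn1 differed in the opposite direction from Spp1 and Ecm1. For heart the direction of Fn1 depended on the pairing of libraries. Macrophage Fn1 was 224 CPM in liver PBMC and 68.3 CPM in liver PC, 0.305-fold (0.259 to 0.361), and for the library labelled liver TIL the ratio was 0.384 (0.308 to 0.478). For heart, as labelled, it was 77.5 CPM in PBMC and 33.8 CPM in TIL, 0.437-fold (0.303 to 0.629). Monocytes gave 0.407-fold, 0.748-fold (0.505 to 1.07) and 0.646-fold for these pairs. Set against heart PBMC, the library labelled liver TIL, whose T cells carried the cardiomyocyte genes, gave 1.11-fold (0.819 to 1.51) in macrophages and 2.18-fold (1.45 to 3.19) in monocytes. Spp1 went the other way, with 12.1 CPM in liver PBMC macrophages and 139 CPM in liver PC, 11.5-fold (6.399 to 23.1), and 15.4-fold (7.71 to 36.0) in the library labelled heart TIL over heart PBMC. Ecm1 was 6.32-fold (4.19 to 10.01) and 4.73-fold (3.23 to 7.18) in these pairs, again higher in tissue. The library labelled liver TIL over heart PBMC gave 34.3-fold (17.3 to 79.9) for Spp1 and 8.77-fold (6.03 to 13.2) for Ecm1 in macrophages. In the T cell gate Spp1 and Ecm1 were higher in tissue as well. Spp1 was 13.5-fold (3.72 to 111) and 44.2-fold (12.2 to 366), on 2 blood UMIs each. Ecm1 was 5.04-fold (1.96 to 18.5) and 3.96-fold (2.42 to 6.99). Of these T cells, 1707 of 6702 in liver PC and 745 of 5072 in the library labelled heart TIL also met the macrophage gate. Whether the rise was present in T cells outside the myeloid gates was not tested. The part of free RNA in it was not tested either. T cell Fn1 was 0.473-fold (0.315 to 0.745) for liver PC and 1.21-fold (0.709 to 2.23) for the library labelled heart TIL.

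Spp1 in kidney PC was the highest of the 8 libraries in macrophages and in T cells, with intervals that overlap between them. It stood at 1041 CPM (787 to 1352) in macrophages, 1119 CPM (975 to 1278) in T cells and 1125 CPM (1087 to 1164) in barcodes under 500 UMIs. Kidney TIL held 237, 245 and 566 CPM in these. Macrophages did not exceed T cells in either library, at 0.931-fold (0.681 to 1.25) and 0.964-fold (0.567 to 1.55). In order of the macrophage level, kidney PC was followed by the library labelled liver TIL, kidney TIL, the library labelled heart TIL and liver PC. The kidney TIL interval (142 to 369) overlaps those of the libraries labelled liver TIL and heart TIL and of liver PC. Liver, heart and kidney PBMC came last, at 12.1, 9.84 and 0 CPM. The order within blood was not separated. Liver over heart PBMC was 1.23-fold (0.451 to 3.53), and the 0 of kidney PBMC came from 49 cells.

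**Figure D4:**
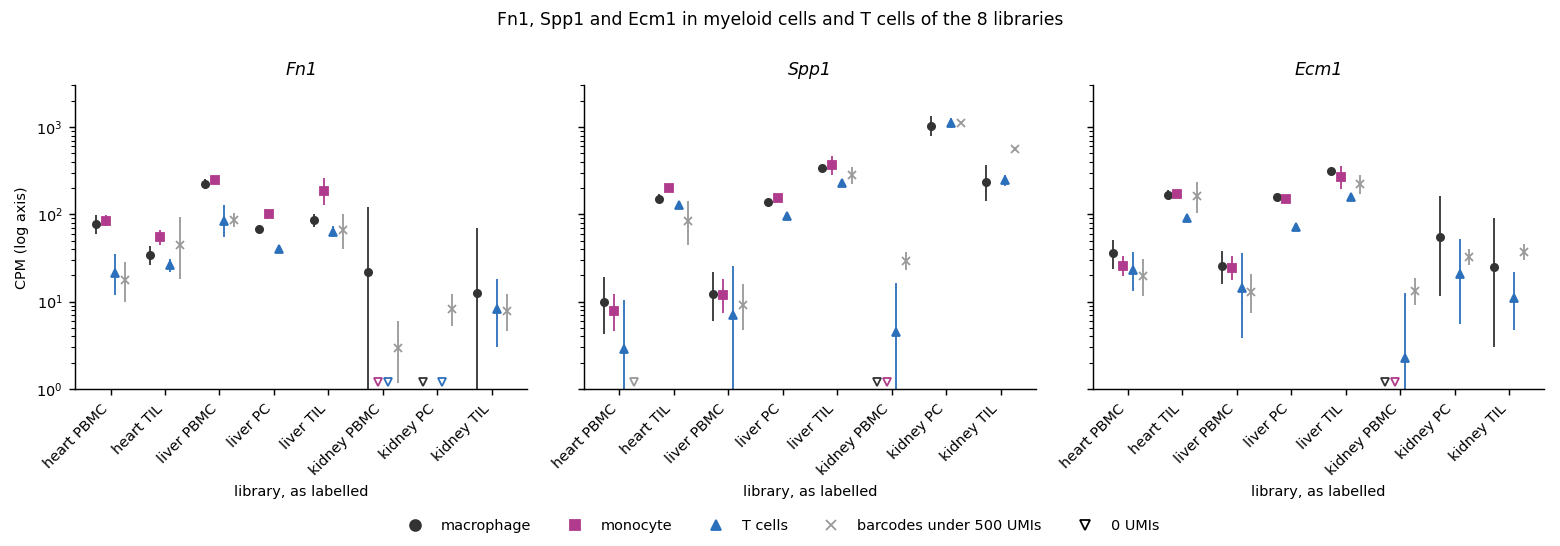
Level of Fn1, Spp1 and Ecm1 in CPM on a log axis in macrophages, monocytes, T cells and barcodes under 500 UMIs of the 8 libraries as labelled, with exact Poisson 95% intervals, for classes of at least 20 cells. Fn1 peaks in liver PBMC at 248 CPM in monocytes, and Spp1 in kidney PC lies at 1041 CPM in macrophages and 1119 CPM in T cells.

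Macrophages that carried Arg1, which encodes an arginine-degrading enzyme, had more Ecm1 and Spp1 than those without in the 3 tissue libraries compared. Kidney PC and kidney TIL held 0 and 1 such macrophages. Those with Arg1 numbered 480 in the library labelled liver TIL, 236 in that labelled heart TIL and 549 in liver PC. Ecm1 was 1.87-fold (1.57 to 2.22), 2.04-fold (1.56 to 2.63) and 3.16-fold (2.81 to 3.56) higher in them, and Spp1 1.75-fold, 1.59-fold and 1.70-fold. With the macrophage richest in Spp1 left out, Spp1 was 1.36-fold (1.135 to 1.63), 1.74-fold (1.28 to 2.33) and 1.91-fold (1.66 to 2.20). The cell left out of the library labelled liver TIL carried Arg1 and held 61 Spp1 UMIs. Ecm1 without its richest macrophage was 1.82-fold, 1.83-fold and 2.98-fold. Fn1 differed beyond counting error in liver PC only, at 2.32-fold (1.92 to 2.80), with 1.32-fold (0.932 to 1.86) and 1.09-fold (0.493 to 2.16) in the others. Mgp was 0.424-fold (0.321 to 0.553) in the library labelled liver TIL. In liver PC it was 0.365-fold (0.246 to 0.525), a value that rests on 1 cell without Arg1 that held 226 UMIs, and 0.938-fold (0.619 to 1.38) without it. In the library labelled heart TIL it was 0.339-fold (0.00811 to 2.16, 1 UMI with Arg1). In the libraries labelled liver TIL and heart TIL and in liver PC, Sparc was 0.513-fold (0.399 to 0.654), 0.779-fold (0.359 to 1.51) and 0.510-fold (0.319 to 0.780), and Col3a1 0.525-fold (0.401 to 0.680), 0.214-fold (0.0252 to 0.810, 2 UMIs with Arg1) and 0.834-fold (0.445 to 1.46). The cells are parts of 1 library each, so these contrasts have no replicate. The part of hepatocyte RNA in them was not tested.

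**Figure D5:**
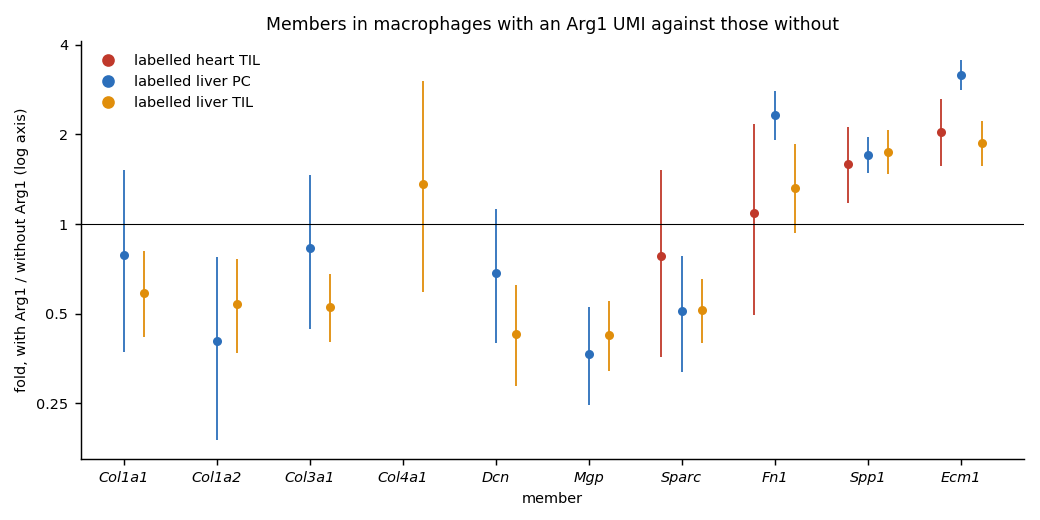
Fold of each member between macrophages with an Arg1 UMI and those without, on a log axis, with exact 95% intervals, in 3 tissue libraries as labelled, where both groups held at least 10 UMIs. Ecm1 lies at 1.87 to 3.16 and Spp1 at 1.59 to 1.75, all above 1, while Mgp lies at 0.424 in the library labelled liver TIL and at 0.365 in liver PC, where it is 0.938 without 1 cell. Without the macrophage richest in it, Spp1 is 1.36 in the library labelled liver TIL, 1.74 in that labelled heart TIL and 1.91 in liver PC.

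Other matrix genes in the stromal cells labelled liver TIL were counted from lists by function, with the 10 members left out. Called higher were 30 of 73 genes examined, against 2.45% of all genes. They were 1 of 2 fibrillar collagens, 1 of 6 basement membrane genes (Col4a2), 2 of 7 other collagens, 1 of 2 small leucine-rich proteoglycans, 10 of 14 glycoproteins, 8 of 16 collagen-processing genes, 3 of 10 proteases, 3 of 5 protease inhibitors and 1 of 11 matrix receptors. Of the members' neighbours in these lists, Col5a2, which co-assembles with collagen I, stood at 299 CPM against 16.4 CPM in T cells, and the proteoglycan gene Bgn at 712 against 45.8 CPM. Serpinh1, the collagen chaperone of the endoplasmic reticulum, stood at 926 against 54.3 CPM, and Lox, which cross-links collagen, at 263 against 15.5 CPM. Fbln2 and Fbn1, of elastic fibres and microfibrils, were at 221 and 135 CPM against 10.6 and 6.68 CPM. The protease gene Mmp3 was at 206 CPM against 12.4 CPM, and Timp1, an inhibitor of such proteases, at 1873 against 175 CPM. Of the receptors, Itga5, part of a fibronectin receptor, was called at 107 against 33.4 CPM.

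Likeness of pattern was described over summed classes of at least 20 cells, 17 sums of 6 libraries for the collagens and 23 sums of 8 libraries for the others. The Pearson correlation of log2(CPM + 1) with Col3a1 was highest for Col4a1 at 0.977, Bgn at 0.975, Col1a2 at 0.974 and Aebp1 at 0.965, followed by Gng11, Tpm2, Angptl4 and Ppic. For Col4a1 it was Gng11 at 0.979, then Col3a1, Col1a2, Bgn, Aebp1, Angptl4, Eng and Lsr. Fn1 was most like Marcks at 0.895, and was also like Sowahc, Pou2af1, Tlr4, Arhgap24, Atg4c and Iglc2. Spp1 was most like Chchd6 at 0.957 and the macrophage gene C1qa at 0.940, before Cxcl11, Tspan4, Copz2, Ccnd1, C1ra and Tmbim1, and Ecm1 most like Apoe at 0.941, before Jchain, Ctsl, Uap1l1, Tnip2, Acvrl1, Plpp5 and Hspa1a. Sums of 1 library share its depth and free RNA, and only 1 of them is stromal, so these values describe libraries as much as cells.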

How the data were processed

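Single cells of 8 libraries were captured in microwells and sequenced from the 3′ end. The authors made the deposited UMI count tables, genes by barcodes, with Drop-seq core tools and STAR on GRCm38 with GENCODE genes, removing reads with several alignments and merging UMIs within 1 edit. A barcode entered as a cell from 500 UMIs upward, and 1 cell above 10% mitochondrial RNA was removed. No doublet caller was run, and the classes overlap.

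UMIs were summed per class and library and scaled to CPM, with exact Poisson 95% intervals, and exact conditional intervals for ratios of sums. Shares used cells thinned to 500 UMIs (seed 0) and exact binomial intervals. A level of 0 was given the limit of 3 counts. PCR and free RNA are outside these intervals. With 1 library per group there is no test. A gene was examined where class and T cells held 10 UMIs together, and called at 2-fold on CPM + 1 with 10 UMIs in the class, in classes of at least 20 cells. A level in CPM compares molecules, not lengths. Python 3.11.15, numpy 2.4.6, scipy 1.17.1, pandas 2.3.3 and matplotlib 3.10.9 were used. The call rule, the ratio intervals and the likeness ranking were tested on simulated data, where classes shared no cells. The other steps were not tested in this way. Gene positions are from GENCODE M21 (GRCm38).

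The members and lists were chosen with earlier results of these data known. Named besides the members were up to 3 genes per matrix list with the largest stromal log2 ratio, and the 8 genes most alike in Pearson correlation to Col3a1, Col4a1, Fn1, Spp1 and Ecm1 among genes with at least 100 UMIs, of which 1 is not reported here. Alternatives changed the UMI floor, scaling, UMI minimum, pseudocount, gates, T cell background, shared barcodes and the richest cells, and those that left out the richest cell of the Arg1 split or the cells shared by the monocyte and macrophage gates were chosen after seeing the data.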

Additional observations from a re-analysis of the deposited data

Results flagged for a closer look

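Mgp in Csf1r macrophages differed in direction between 2 tissue libraries. It was 1.38-fold (1.21 to 1.58) its T cell level in liver PC and 0.818-fold (0.724 to 0.924) in the library labelled liver TIL, and the difference between the libraries was not tested. In liver PC 1 cell held 226 of the 402 Mgp UMIs of the macrophages. Without cells that held 10 or more fibrillar collagen UMIs the log2 ratios were -0.15 and -0.03. With 2 Csf1r UMIs and no Cd3 UMI they were -3.32 (3 UMIs in liver PC) and -1.28, and with no Chil3 UMI -3.37 (2 UMIs) and -0.15, so the direction was the same in both libraries under each of these 3 alternatives.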

How the results depend on the processing

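No paired analysis was possible because each group is 1 library with no replicate number, and no replicate could be left out. Members called in stromal cells numbered 10 of 10 and 7 to 10 under the other gates, floors and scalings, while allowing classes of 10 cells gave 24 of 30 over 3 libraries. Endothelial calls, at 10 cells, were 3 of 20, and 6 with no UMI minimum. Macrophage calls were 4, and became 14 with no UMI minimum and 9 against T cells without Csf1r. Monocyte calls were 7, and 4 with a pseudocount of 10 CPM. These counts are of member and library pairs. The share of all genes called was taken for the rules of 20 and 10 cells only. Of 1092 alternatives for single values, 912 stayed within counting error, 177 moved beyond it and 3 turned the sign of a called value. The sign differed from the reported value in 77, these 3 included, and 368 of 389 alternatives for called members kept the call. Among called members the sign differed for Spp1 in stromal cells of the library labelled heart TIL (log2 ratio -0.30) and for Col4a1 in those labelled liver TIL (-4.25, with 0 UMIs left), both without cells of 10 or more fibrillar collagen UMIs, and for Fn1 in heart PBMC macrophages with no Chil3 UMI (-4.49), 55 cells which held 0 Fn1 UMIs, while 48 cells with 2 Csf1r UMIs and no Cd3 UMI gave 3.95. The 55 cells held 41217 UMIs in all, too few for the sign of that value to be read. The cause was not tested. No value could be had for a stromal gate of 3 UMIs, for stromal and endothelial counts without both mismatched libraries, or for endothelial cells at a floor of 1000 UMIs or a gate of 3 UMIs, since too few cells remained. Fewer than 20 cells limit endothelial values, and stromal values of liver PC and of the library labelled heart TIL.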

Other observations

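Of the matrix proteases examined in macrophages, 1 of 9 was called higher in the library labelled heart TIL, 3 of 10 in liver PC and 3 of 11 in that labelled liver TIL, where 1.23%, 3.28% and 2.34% of all genes were. Mmp14, a membrane-bound collagenase, was called higher in macrophages than in T cells in 4 tissue libraries, at 83.5 against 33.4 CPM in that labelled liver TIL, 73.6 against 28.4 CPM in that labelled heart TIL, 135 against 50.3 CPM in liver PC and 124 against 24.8 CPM in kidney TIL. It was also called in stromal cells of the library labelled liver TIL, at 121 CPM, and in the 12 of liver PC. Monocytes had it called in the libraries labelled liver TIL and heart TIL and in liver PC. Mmp14 and Mmp8 were chosen after their values were seen. Mmp8, the collagenase of neutrophil granules, stood at 232 against 33.7 CPM in monocytes of the library labelled liver TIL, and at 3093 against 1992 CPM in heart PBMC, where it was not called. It was called too in the 49 macrophages of kidney PBMC, and in monocytes of liver PBMC, liver PC and the library labelled heart TIL. Neutrophil genes, of which Mmp8 is 1 of 7, summed to 6275 against 5348 CPM in these cells of the library labelled liver TIL and to 182116 against 130337 CPM in those of heart PBMC, and their part in the Mmp8 level was not tested.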
